A study of Homo sapiens with 20 samples.

Results

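The senescent state was described from 10 of the 20 RNA-seq libraries of the series, the 5 libraries of cells harvested 7 days post-IR and the 5 libraries of untreated cells. The libraries were chosen by the time point in their labels, and all 14992 genes that passed the filter on low counts, of 20314 in the deposited table, were compared. The cells were U2-OS, an established human osteosarcoma line, grown in DMEM with 10% FCS. The 7 days group received 20 Gy of ionizing radiation, the untreated group received none, and both were harvested together in 5 replicates. The other 2 groups of the series, an early time point post-IR and non-irradiated cells with a knockdown of NFKBIA, entered the fit for the estimate of spread and are not described. The comparison asks how broadly gene expression differed once the cells had entered senescence, and in which functions. All cells were 1 line in culture, so that the measurements hold for this line.

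Senescence is a lasting exit from the cell cycle that follows DNA damage which is not repaired. p53 raises the CDK inhibitor p21, the RB family proteins then hold back the E2F factors, and the DREAM complex represses the genes of mitosis. Senescent cells stay metabolically active, enlarge, accumulate lysosomes, lose lamin B1, and secrete cytokines, chemokines, growth factors and proteases, the senescence-associated secretory phenotype (SASP), much of it under the control of NF-κB, C/EBPβ and AP-1.

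The libraries held 22535659 to 40390961 counts in the untreated group and 27547705 to 34307447 at 7 days post-IR. Levels are given as CPM, the counts of a gene per 1000000 counts of its library with sizes scaled by TMM, as single libraries in the order of replicates 1 to 5 or as mean ± SD (n = 5). The 5 libraries at 7 days post-IR correlated with each other at 0.996 to 0.997 in log2 CPM, the untreated ones at 0.970 to 0.996, and libraries of different groups at 0.943 to 0.963. The untreated library of replicate 5 had the lowest total and stood apart from the other 4 untreated libraries on the second principal component, at -52.4 against 6.85 to 29.2, and it was run in another lane. The untreated libraries of replicates 1 to 4 came from lane 2 and that of replicate 5 from lane 3, whereas the libraries at 7 days post-IR came from lanes 4 and 5. Within these 10 libraries the lane and the treatment cannot be told apart. A fit with the lane as a factor could only link the groups through the remaining libraries of the series. With it, a count of calls moved by over 1.5 times in 36 of the 61 lists of genes described below, and the larger of these changes are given beside the counts. RNA was taken from whole cultures, so that fewer cells of one kind and less RNA per cell cannot be told apart, and changes are relative to the total RNA of each library.

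At 7 days post-IR, 2505 genes were higher and 2152 were lower than in untreated cells, 16.7% and 14.4% of the genes tested. A gene was called where edgeR's quasi-likelihood test gave a Benjamini-Hochberg adjusted p under 0.05, below named the edgeR adjusted p, and its log2 fold change exceeded 0.5 in either direction. With at least 10 counts required in every library, 1948 were higher and 2006 lower. Among all genes tested, above a log2 fold change of 2 in size there were 405 rises and 104 falls, and above 3 there were 167 rises and 29 falls, counts that include genes near 0 in one group. The median log2 fold change of all genes tested was 0.01. In 6711 genes, 44.8% of those tested, the 5 libraries of one group lay entirely above or below those of the other, with 3656 genes higher and 3055 lower at 7 days post-IR. For a single gene with groups that do not overlap, the exact two-sided permutation test gave its smallest p of 0.00794.

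Among genes at 1 CPM or more in untreated cells, the share of rises was lower the higher the level. The classes were set by the untreated level, which also enters the fold change, so that this trend is a description. From 1 to 10 CPM 26.2% of 2845 genes were called higher and 18.7% lower, from 10 to 100 CPM 10.7% of 7918 higher and 12.4% lower, and above 100 CPM 5.97% of 2646 higher and 18.1% lower. Genes of lower levels could pass the filter through groups in which they were higher, so that the shares called higher of the 1474 genes from 0.1 to 1 CPM (44.2%) and of the 109 genes under 0.1 CPM (98.2%) are not read as a direction of change. The share called varied little with gene length, from 15.8% to 18.6% higher and from 11.8% to 16.8% lower across 5 length classes.

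**Figure D1:**
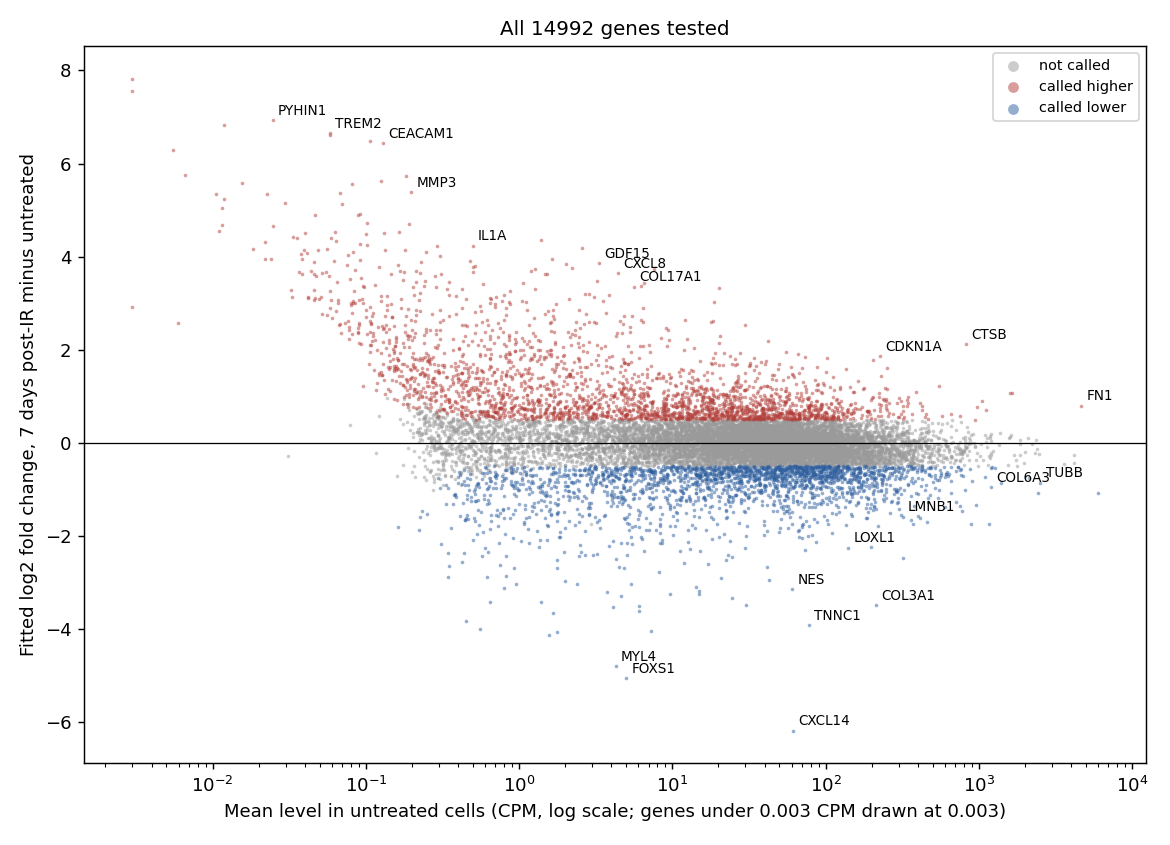
Fitted log2 fold change at 7 days post-IR against the mean CPM of the 5 untreated libraries (log scale) for all 14992 genes tested, coloured by call (red higher, blue lower, grey not called). Above 100 CPM the falls (480 genes) outnumber the rises (158 genes), and genes under 1 CPM could pass the filter through a group in which they were higher.

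To resolve the breadth by function, 61 lists of genes in 14 themes were described by the number of members called and by their median log2 fold change. The genes of all lists together were called at a higher rate than the others. The lists were chosen with earlier results of these data known, so that this difference is a description. Of the 1870 list genes tested, 20.5% were higher and 21.6% lower, against 16.2% and 13.3% of the 13122 genes in no list. Arrest and p53 targets, secreted inflammatory factors, innate immunity, lysosome and autophagy, and cell death had positive medians of 0.93, 0.44, 0.34, 0.44 and 0.24. Proliferation and nuclear architecture had negative medians of -0.68 and -0.45. Matrix and cytoskeleton (23.4% higher, 31.0% lower), the membrane and neuronal genes (35.6% and 17.8%) and the cell type markers (34.3% and 22.9%) held more calls than all genes tested in both directions. Signalling (15.4% and 22.8%) held more falls, metabolism (9.57% and 15.6%) fewer rises, and protein synthesis (4.93% and 2.96%) and the secretory pathway (12.2% and 4.88%) held fewer in both. The share of all counts that fell on the arrest genes went from 0.336% in untreated cells to 0.734% at 7 days post-IR, that on lysosome and autophagy genes from 1.37% to 2.37%, and that on proliferation genes from 3.0% to 2.0%.

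**Figure D2:**
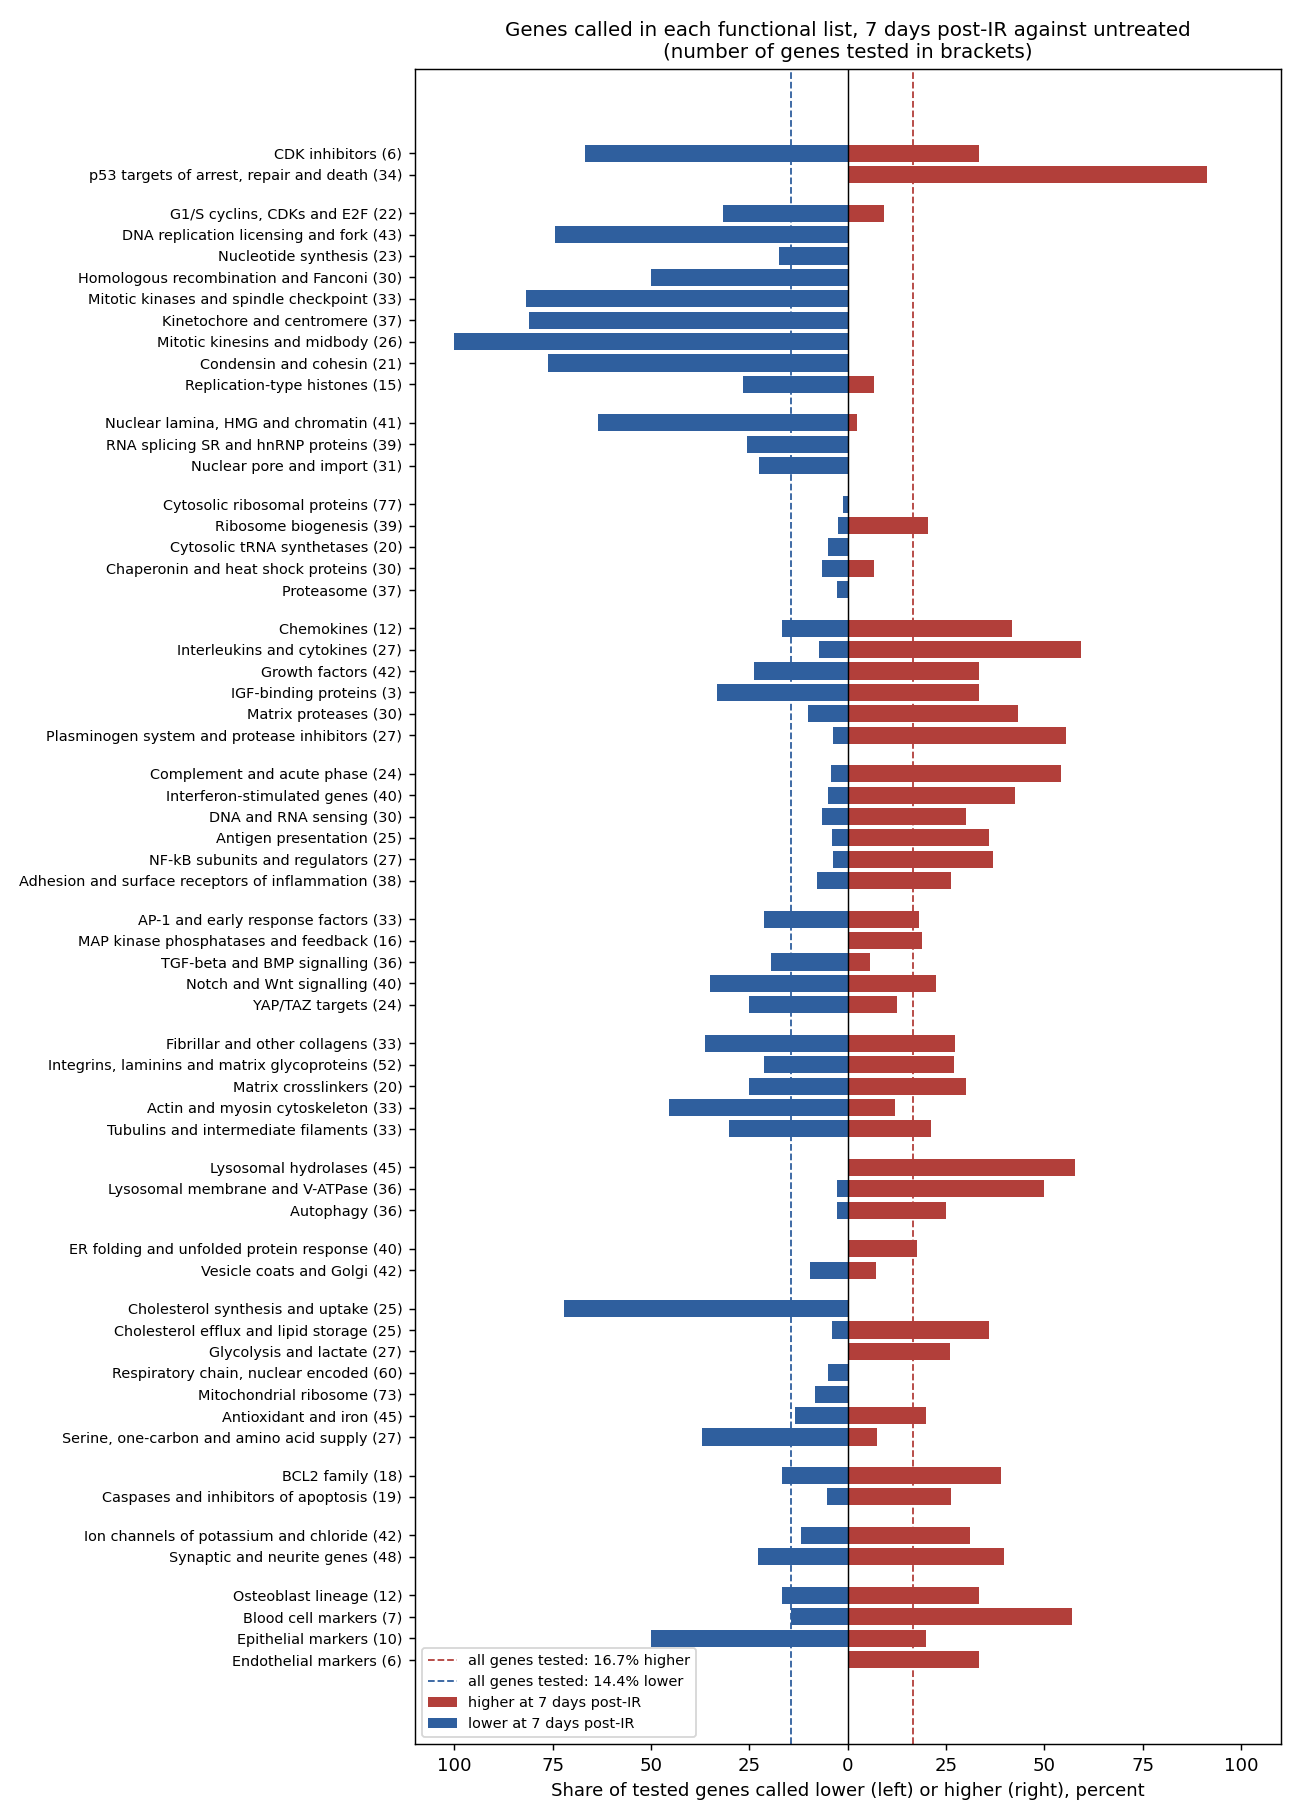
Share of the tested genes of each of the 61 lists called higher (right, red) and lower (left, blue) at 7 days post-IR, in percent, with dashed lines at 16.7% and 14.4%, the shares over all genes tested. Bars far beyond the dashed lines include the mitotic kinesins (26 of 26 lower), the p53 targets (31 of 34 higher), and cholesterol synthesis (18 of 25 lower), whereas the ribosomal proteins have almost none.

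**Figure D3:**
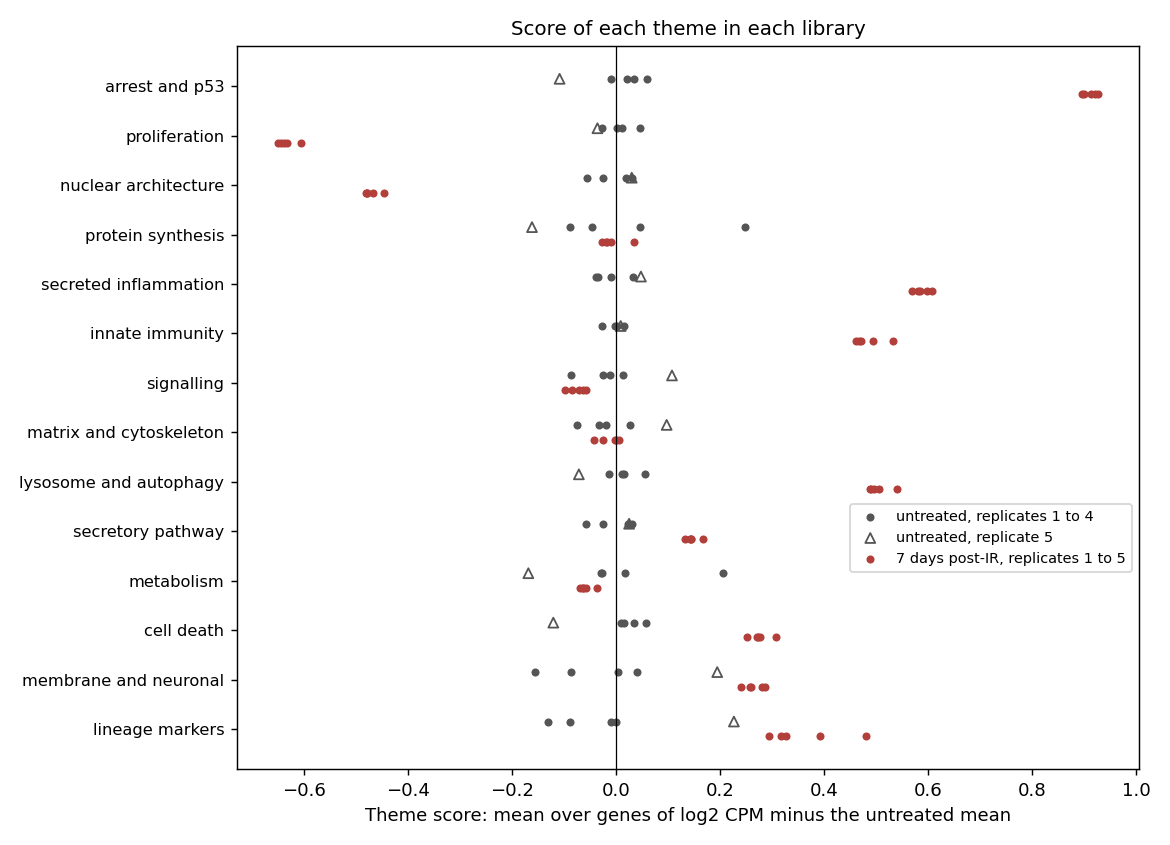
Score of each theme in each of the 10 libraries, the mean over its genes of log2 CPM minus the mean of the untreated libraries (x axis), with untreated replicate 5 drawn as an open triangle. The 5 libraries at 7 days post-IR mostly lie within narrow ranges, apart from the untreated ones in proliferation and innate immunity and among them in protein synthesis and metabolism.

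The p53 targets had the largest share of rises of the 61 lists. Of 36 p53 targets listed 34 were tested, 31 were higher and none lower, with a median log2 fold change of 1.04. In each of the 34 the 5 libraries at 7 days post-IR lay above all untreated ones, against 3656 of all 14992 genes tested. CDKN1A (ENSG00000124762), which encodes p21, measured 239, 217, 229, 242 and 199.9 CPM in untreated replicates 1 to 5 and 805, 837, 807, 823 and 811 CPM in replicates 1 to 5 at 7 days post-IR (log2 fold change 1.86, SE 0.05, edgeR adjusted p = 6.38e-17). The untreated library of replicate 5 was the lowest, and the groups were far apart. MDM2, the ubiquitin ligase that restrains p53, rose from 205 ± 7.42 to 704 ± 11 CPM (log2 fold change 1.78, SE 0.04, edgeR adjusted p = 2.06e-18). The death receptor FAS (1.82), the stress kinase PLK3 (1.69) and the growth arrest gene GADD45A (1.58) also rose, with the log2 fold change in brackets here and below. For the printed genes that were called, the standard error of the log2 fold change ranged from 0.0407 to 0.555 (median 0.117) and the highest adjusted p was 0.0157, for CHAC1. GDF15, a secreted member of the TGF-β family, was the largest rise among these targets, from 2.44, 4.32, 2.63, 3.66 and 3.62 CPM to 38.5, 48, 51.5, 50.9 and 51.7 CPM (log2 fold change 3.86, SE 0.17, edgeR adjusted p = 3.55e-14). BAX, the pro-apoptotic BCL2 protein, did not pass the fold threshold at 0.38, nor did RPS27L at 0.46 (0.54 without untreated replicate 4) and TNFRSF10C at 0.28.

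The CDK inhibitors other than p21 mostly fell. Of 6 tested, CDKN1A and, just past the threshold, CDKN2B (0.53, but 0.48 without untreated replicate 4 or without replicate 4 at 7 days post-IR) were higher and CDKN2C, CDKN1B (-1.13), CDKN2D (-1.03) and CDKN1C (-0.76) were lower. CDKN2C, which encodes the INK4 protein p18, went from 67.8, 62, 65.8, 76.4 and 78.2 CPM to 18.1, 16.3, 16.8, 17.2 and 16.6 CPM (log2 fold change -2.04, SE 0.07, edgeR adjusted p = 3.68e-16), without overlap. CDKN2A, the source of p16 and ARF, had 0 counts in every untreated library and at most 2 at 7 days post-IR, under the floor of 3 counts, and was not tested. CDKN2B and CDKN1C were not called with the lane as a factor, which left 1 higher and 3 lower.

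Genes of DNA replication were mostly lower. Of the 43 licensing and fork genes, 32 were lower and none higher (median -0.66), and 19 were lower with the lane as a factor. The largest falls were GINS2 (-1.30) and POLE2 (-1.27), parts of the replicative helicase and polymerase, with MCM5 (-1.11) of the MCM ring. MCM6, another subunit of that ring, went from 149, 163, 148, 159 and 112 CPM to 72.2, 67.1, 68.2, 67.8 and 68.2 CPM (log2 fold change -1.09, SE 0.07, edgeR adjusted p = 3.37e-11). The untreated library of replicate 5 was nearest to the irradiated ones, and the groups did not overlap. PCNA, the sliding clamp and also a p53 target, differed by -0.04. In homologous recombination and the Fanconi pathway 15 of 30 genes were lower and none higher, RMI2 (-1.02) and BLM (-0.80) among them. Of 23 genes of nucleotide synthesis 4 were lower (17.4%, near the 14.4% of all genes), which were TK1 (-1.15), DUT (-0.90), DTYMK (-0.84) and SHMT1 (-0.71), and 6 were lower without untreated replicate 5, but 2 higher and 2 lower with the lane as a factor. Among 22 G1/S regulators, the cyclins D1 (CCND1, 0.98) and D2 (CCND2, 0.83) were higher and 7 were lower, including E2F2 (-1.49), CCNA2 (-1.18) and E2F1 (-0.93). RMI2, DUT, DTYMK and E2F1 were not called with the lane as a factor.

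Since E2F factors act through promoters, the window from 250 bases before to 50 bases after the RefSeq start (GRCh38.p14) was searched in the 11550 tested genes that had one. Here and below, a match of letters does not show that a factor binds there. The E2F letters TTTCCCGC, TTTGGCGC, TTTCGCGC or TTTGCCGC, on either strand, were in 17 of 35 promoters of replication genes (48.6%, 95% Wilson interval 33.0% to 64.4%), against 5.08% of all promoters. They were in 2.76% of promoters of genes called higher and 7.06% of those called lower. The MCM6 promoter (chr2:135876492-135876625, minus strand) is shown because it holds 2 such blocks, in capitals, in each of which 2 matches on opposite strands overlap, the first beginning 152 bases before the start.
MCM6: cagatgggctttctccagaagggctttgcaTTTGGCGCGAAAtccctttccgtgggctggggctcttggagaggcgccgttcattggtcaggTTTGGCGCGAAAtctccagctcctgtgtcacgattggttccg

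Mitotic genes were lower in most cases as well. Of 33 mitotic kinases and checkpoint genes 27 were lower, of 37 kinetochore genes 30, of 26 mitotic kinesins and midbody genes 26, and of 21 condensin and cohesin genes 16 and none of them was higher. The medians were -0.91, -0.90, -1.02 and -0.76. PLK1, a kinase required at several steps of mitosis, measured 144, 123, 138, 146 and 196 CPM in untreated cells and 52.2, 50.1, 49, 50.9 and 48.7 CPM at 7 days post-IR (log2 fold change -1.57, SE 0.09, edgeR adjusted p = 2.12e-12). Untreated replicate 5 was the highest library for PLK1, and the groups did not overlap. FOXM1, which drives mitotic genes, fell from 402 ± 133 to 136 ± 3.38 CPM (log2 -1.56), and KIF20A, a kinesin of cytokinesis, from 186 ± 12 to 60.6 ± 2.23 CPM (log2 -1.62). The centromeric histone CENPA (-1.38), survivin (BIRC5, -1.27), topoisomerase II (TOP2A, -0.83) and CDK1 (-0.58) fell as well. HMMR (-0.26), WEE1 (-0.47) and BUB3 (-0.00) were not called, although WEE1 was at -0.58 and called without untreated replicate 5. The replication-type histones, whose transcripts mostly lack a poly(A) tail and are poorly sampled in mRNA libraries, had 4 of 15 genes lower and 1 higher.

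Many mitotic promoters carry the CHR, the letters TTTGAA to which DREAM binds, and a CCAAT box. The CHR letters were in 14 of 24 promoters of mitotic kinases (58.3%, Wilson interval 38.8% to 75.5%), in 14 of 30 of kinetochore genes (46.7%, interval 30.2% to 63.9%) and in 18 of 25 of kinesins (72.0%, interval 52.4% to 85.7%), against 10.3% of all promoters. In the bases before the start alone they were in 12 of 24 (50%), 7 of 30 (23.3%) and 13 of 25 (52%), against 8.97% of all. CCAAT was in 20 of 25 promoters of kinesins (80.0%) against 36.1% of all. Over all genes called higher and lower, the CHR was in 12.1% and 13.8% of promoters and CCAAT in 34.2% and 39.0%. PLK1 (chr16:23678830-23678888, plus strand) is shown for its CHR, 29 bases before the start, and KIF20A (chr5:138178988-138179079, plus strand) for its 2 inverted CCAAT boxes, both in capitals. No 2 matches overlap in either.
PLK1: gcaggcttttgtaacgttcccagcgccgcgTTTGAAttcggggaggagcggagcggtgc
KIF20A: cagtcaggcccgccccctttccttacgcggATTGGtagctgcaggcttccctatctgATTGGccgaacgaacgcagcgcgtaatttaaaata

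Genes of nuclear architecture were lower in many cases. Of 41 genes of the lamina, the HMG proteins and chromatin 26 were lower and 1 was higher (median -0.66). LMNB1, lamin B1 of the nuclear envelope, measured 330.2, 313, 316, 333 and 302 CPM in untreated cells and 108, 111, 106, 101 and 106 CPM at 7 days post-IR (log2 fold change -1.58, SE 0.04, edgeR adjusted p = 3.35e-17). The 2 groups were far apart, and each was tight. LMNA, the source of lamins A and C, differed by -0.21 and was not called. The chromatin proteins HMGB2 (-1.20), HMGB1 (-1.20) and HMGB3 (-1.38) fell, as did the Polycomb methyltransferase EZH2 (-1.05) and the histone H2AFX (-1.61). HMGA2, an architectural protein of heterochromatin foci, was the 1 gene higher (0.88), and it was not called with the lane as a factor. Among splicing factors 10 of 39 were lower, such as SNRPA (-1.16) and HNRNPD (-1.07), and among nuclear pore and import genes 7 of 31, such as KPNA2 (-0.83), with 13 lower with the lane as a factor.

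**Figure D4:**
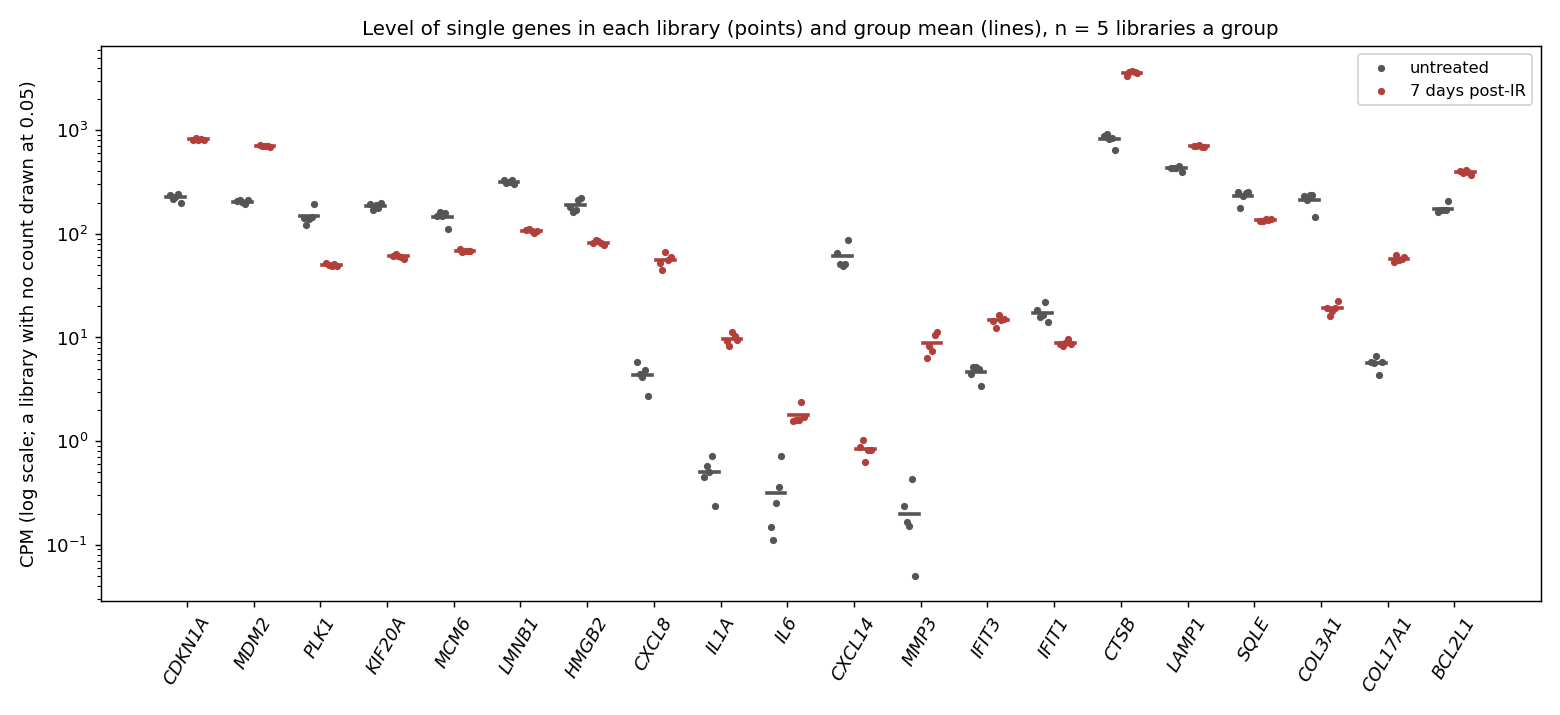
CPM (log scale) of 20 genes in each of the 5 untreated libraries (grey points) and the 5 libraries at 7 days post-IR (red points), with the group means as lines. The groups do not overlap in any of the 20 genes, and the levels span from under 1 CPM (IL6 and MMP3 in untreated cells) to 3375 CPM and more (CTSB at 7 days post-IR).

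Genes of protein synthesis held few calls. Of 77 cytosolic ribosomal proteins 1 was lower and none higher, of 37 proteasome genes 1 was lower, and of 20 tRNA synthetases 1 was lower, or 3 without untreated replicate 5. With the lane as a factor 7 proteasome genes and 4 synthetases were higher, 25 ribosomal proteins were higher and 13 lower, and their median moved from -0.10 to 0.15. Ribosome biogenesis had 8 of 39 genes higher (20.5%, against 16.7% of all genes), among them the processing factor RRP12 (1.02) and the polymerase I factor RRN3 (0.68), while fibrillarin (FBL), which methylates ribosomal RNA, was lower (-0.89). Of 30 chaperonin and heat shock genes 2 were higher and 2 lower, or 4 higher and 5 lower with the lane as a factor. The chaperones HSPA2 (1.93) and HSPB8 (1.0) were higher, and HSPB1 was lower (-0.98).

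Secreted inflammatory factors were the theme with the widest range, from -6.18 to a fitted 5.76 in log2 fold change, the latter for SERPINB2, which had at most 1 count in an untreated library and was not called with the lane as a factor. Of 141 genes tested 64 were higher and 19 lower. Members at low levels in untreated cells could pass the filter through a group in which they were higher. The median of the theme was 0.44, and 0.341 with at least 10 counts required in every library. Interleukins and cytokines had 16 of 27 higher and 2 lower, with a median of 1.04, and 13 higher and 5 lower with the lane as a factor. CXCL8 (ENSG00000169429), the neutrophil attractant IL-8, measured 5.79, 4.4, 4.18, 4.88 and 2.71 CPM in untreated cells and 51.9, 44.6, 67.4, 56.4 and 59.1 CPM at 7 days post-IR (log2 fold change 3.65, SE 0.14, edgeR adjusted p = 1.05e-14). IL6, the cytokine most used as a SASP marker, stood far lower, at 0.148, 0.111, 0.25, 0.362 and 0.714 CPM and 1.55, 1.61, 1.59, 2.4 and 1.72 CPM (log2 fold change 2.63, SE 0.34, edgeR adjusted p = 1.04e-06). With the lane as a factor its change was 1.43 and no longer called. Both were without overlap, but IL6 stayed within a few CPM. The upstream cytokine IL1A rose from 0.498 ± 0.179 to 9.71 ± 1.12 CPM (log2 fold change 4.23, SE 0.19, edgeR adjusted p = 6.88e-14). IL1B had 3 or fewer counts in each untreated library and rose 43.3-fold (exact 95% counting interval 11.6 to 363) by pooled counts, but it was not called with the lane as a factor (edgeR adjusted p = 0.0612). The cytokines IL24 (3.04) and IL23A (2.22) and the death ligand TNFSF10 (2.97), known as TRAIL, were also higher, and IL15 (-0.87) was lower. TNF, the prototype of the family, was not called (0.70, edgeR adjusted p = 0.139) unless replicate 2 at 7 days post-IR was left out (0.89).

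Chemokines were higher in 5 of 12 cases. CXCL8, CXCL3 (2.08), CCL20 (1.70), CXCL12 (0.91) and CCL7 (0.82, not called with the lane as a factor) were higher, and 2 of the list were lower. CXCL14, a chemokine made by epithelia, had the largest fall of all genes called, from 65.8, 50.8, 49.4, 50.7 and 87.8 CPM to 0.878, 1.02, 0.634, 0.822 and 0.824 CPM (log2 fold change -6.18, SE 0.19, edgeR adjusted p = 2.16e-16). The untreated library of replicate 5 was the highest and the groups did not overlap. CX3CL1 (-1.48), the membrane-bound chemokine fractalkine, was the other one. CCL24, an eosinophil attractant outside the list that was named after its values were seen, fell as well, from 14.2 ± 1.49 to 1.67 ± 0.371 CPM (log2 -3.09). CCL2, the monocyte attractant, differed by 0.24 and was not called.

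Growth factors were divided, with 14 of 42 higher and 10 lower, 33.3% and 23.8% against 16.7% and 14.4% of all genes tested. The EGF family ligands EREG (1.50) and NRG1 (2.37), the angiogenic ANGPTL4 (3.88) and BMP2 (1.85) were higher. PDGFB (-1.73), PTN (-1.48), BMP4 (-1.02) and TGFB1 (-0.89, but -0.43 and not called without untreated replicate 5, the highest library) were lower, as was IGFBP5 (-1.69), which binds insulin-like growth factors. Matrix proteases had 13 of 30 higher and 3 lower. MMP3, stromelysin 1, measured 0.237, 0.166, 0.15, 0.428 and 0 CPM in untreated cells and 6.41, 8.21, 7.35, 10.5 and 11.3 CPM at 7 days post-IR (fitted log2 fold change 5.39). It had at most 13 counts in an untreated library, and none in replicate 5, so that it could pass the filter through a group in which it was higher. MMP10 rose by 3.36, and MMP1, interstitial collagenase, rose 18.3-fold (exact 95% counting interval 8.61 to 46.3) by pooled counts from at most 3 counts a library. MMP9 (-0.90) and MMP13 (-1.22) were lower. Among inhibitors and the plasminogen system 15 of 27 were higher and 1 lower, with TIMP1 (1.07) and A2M (1.35) among the rises. The 1 fall was SERPINF1 (-4.07), an inhibitor of angiogenesis.

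The NF-κB letters GGNNTTTCC, on either strand, were in 3 of 8 chemokine promoters (37.5%, Wilson interval 13.7% to 69.4%), 3 of 19 of interleukins (15.8%, interval 5.52% to 37.6%) and 9 of 24 of NF-κB subunits and regulators (37.5%, interval 21.2% to 57.3%), against 6.58% of all promoters. The AP-1 letters TGANTCA were in 5 of 19 promoters of interleukins and 5 of 19 of the plasminogen and inhibitor list (26.3%, interval 11.8% to 48.8%) and 3 of 16 of matrix proteases (18.8%, interval 6.59% to 43.0%), against 4.93% of all. Genes called higher held the AP-1 letters in 8.60% of promoters and genes called lower in 3.93%, and the NF-κB letters in 7.73% and 5.28%. Shown are CXCL8 (chr4:73740448-73740516, plus strand) and IL6 (chr7:22727098-22727166, plus strand) for the NF-κB letters, 91 and 72 bases before the start, and MMP10 (chr11:102780659-102780725, minus strand) for the AP-1 letters, 67 bases before it, with the letters in capitals.
CXCL8: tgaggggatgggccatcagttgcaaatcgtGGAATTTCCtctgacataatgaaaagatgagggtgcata
IL6: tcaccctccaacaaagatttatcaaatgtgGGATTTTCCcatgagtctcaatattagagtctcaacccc
MMP10: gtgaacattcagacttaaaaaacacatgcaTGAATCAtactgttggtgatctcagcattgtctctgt

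Among 184 innate immune genes tested, 68 were higher and 10 lower, or 76 higher and 24 lower with the lane as a factor. Complement and acute phase genes had 13 of 24 higher and 1 lower. C1S, the protease that starts the classical pathway, rose from 2.84 ± 0.225 to 26.4 ± 2.81 CPM (log2 3.21), and C3, the central component, by 2.12. CFD, the factor D of the alternative pathway, was the 1 gene lower (-1.53), and it was not called with the lane as a factor. Antigen presentation had 9 of 25 higher, or 6 without untreated replicate 5, among them HLA-B (0.86), HLA-E (0.84), the transporter TAP1 (0.87), the light chain B2M (0.58, but 0.48 without untreated replicate 5) and the checkpoint ligand CD274 (0.86). In this list 1 gene was lower, and with the lane as a factor 12 were higher and 3 lower. Reads of the HLA class I genes can be shared between them.

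Interferon-stimulated genes were uneven. Of 40 tested 17 were higher and 2 lower, with a median of 0.34, or 18 higher and 4 lower with the lane as a factor. RSAD2 (4.40), OAS2 (3.50), OAS1 (2.47), GBP2 (1.82) and IFIT2 (1.76) rose, whereas MX1 (0.05) and OASL (0.02) were not called. ISG15 was called (0.64), but its groups overlapped. IFIT3 and IFIT1, neighbours on chromosome 10 that encode RNA-binding antiviral proteins, went in opposite directions. IFIT3 measured 4.42, 5.15, 5.15, 4.91 and 3.42 CPM in untreated cells and 14.5, 12.2, 16.4, 14.8 and 15.2 CPM at 7 days post-IR (log2 fold change 1.65, SE 0.11, edgeR adjusted p = 4.02e-11). IFIT1 measured 18.3, 15.8, 16.5, 22.2 and 14.1 CPM and 8.57, 8.25, 8.85, 9.65 and 8.63 CPM (log2 fold change -0.99, SE 0.09, edgeR adjusted p = 5.58e-09). Neither overlapped between the groups.

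The letters of the interferon-stimulated response element were searched as TTTC, any 2 bases and TTTC again, on either strand. Whether or not the gene was called, they were in 23 of 32 promoters of interferon-stimulated genes (71.9%, Wilson interval 54.6% to 84.4%). In antigen presentation they were in 7 of 22 (31.8%, interval 16.4% to 52.7%). The shares were 2.84% of all promoters, 4.43% of those of genes called higher and 2.15% of those called lower. The promoters of the 2 IFIT genes are shown because they moved apart while both held the letters 2 times before the start, in capitals. That of IFIT3 is at chr10:89327811-89327914, plus strand, and that of IFIT1 at chr10:89392477-89392559, plus strand. In both the 2 matches are separate.
IFIT3: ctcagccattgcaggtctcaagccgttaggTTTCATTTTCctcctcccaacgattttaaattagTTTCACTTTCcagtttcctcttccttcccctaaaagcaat
IFIT1: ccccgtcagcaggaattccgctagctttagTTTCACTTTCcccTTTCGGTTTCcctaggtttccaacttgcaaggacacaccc

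Sensors and NF-κB regulators changed in part. PYHIN1, a member of the interferon-inducible HIN family, had 0 to 2 counts in each untreated library and 3.01, 4.27, 3.63, 3.1 and 3.51 CPM at 7 days post-IR, a rise of 141-fold (exact 95% counting interval 54.6 to 518) by pooled counts. IFI16, its relative that senses DNA, rose by 0.79, caspase 1 (CASP1) by 2.81 and STING (TMEM173) by 1.17, among 9 of 30 sensing genes higher and 2 lower, or 4 lower without untreated replicate 5. Of 27 NF-κB subunits and regulators 10 were higher and 1 lower, or 5 lower with the lane as a factor. TRAF1 (2.08), the ubiquitin ligase BIRC3 (1.66), NFKBIZ (1.19) and RELB (0.66) rose. NFKBIA, which encodes the inhibitor IκBα, was at 31.3 ± 7.25 to 30.8 ± 1.59 CPM and not called (log2 fold change -0.02, SE 0.10, edgeR adjusted p = 0.886), but it was called lower, at -0.54, with the lane as a factor. RELA, the p65 subunit, differed by -0.17 and was not called. Among 38 surface receptors and adhesion molecules 10 were higher, with CD44 (1.60), IL6R (1.27) and IL13RA2 (2.02), and NCAM1 (-1.44) and L1CAM (-1.42) were 2 of the 3 lower. With the lane as a factor 7 of these 38 were lower.

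**Figure D5:**
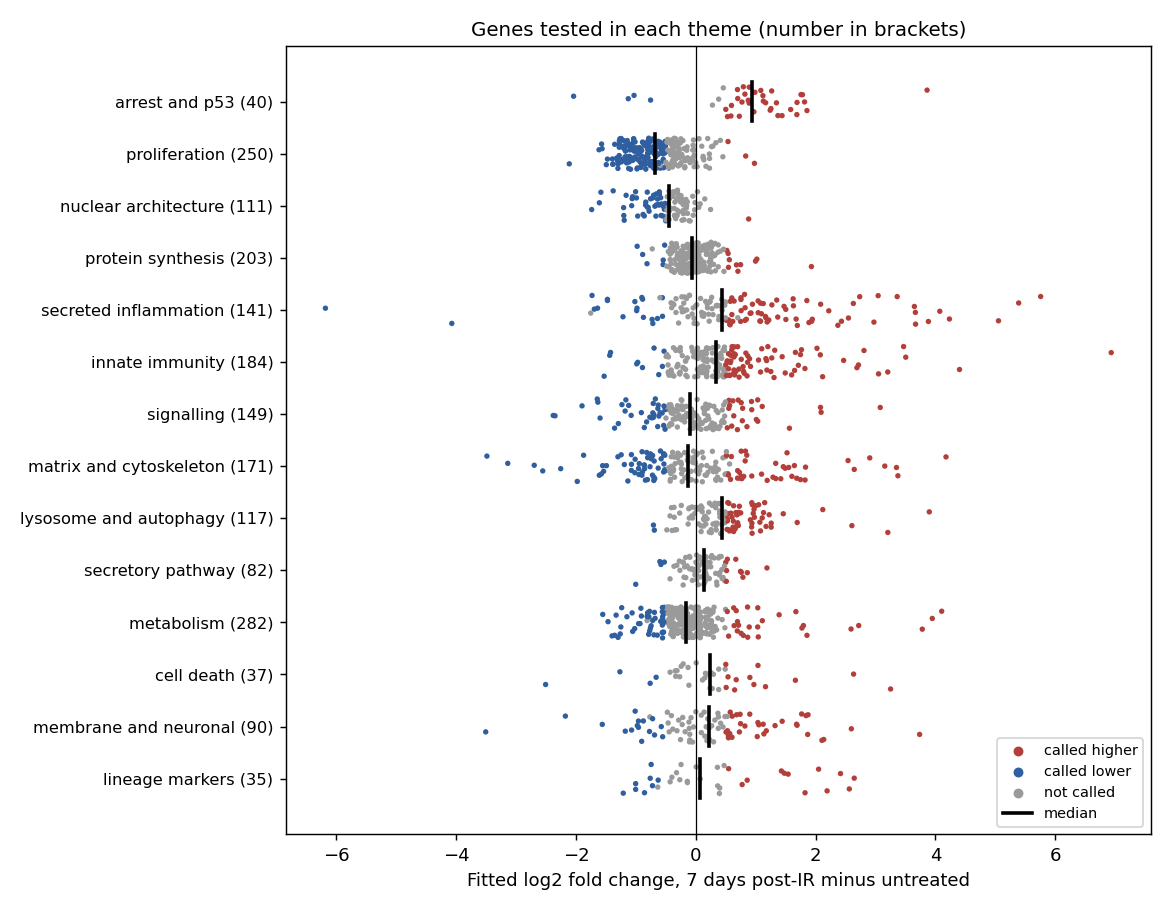
Fitted log2 fold change of every tested gene of the 14 themes (points, red called higher, blue called lower, grey not called) with the median of each theme as a black bar. Secreted inflammation ranges most widely, proliferation lies almost wholly below 0, and matrix and cytoskeleton spreads to both sides.

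Of 149 signalling genes tested 23 were higher and 34 lower. In the Notch and Wnt lists 9 of 40 genes were higher and 14 lower. LGR5 (-2.38), a receptor that strengthens Wnt signals, and RNF43 (-1.90), a Wnt target that removes receptors, fell. The Wnt inhibitor DKK1 rose 9.06-fold (exact 95% counting interval 4.36 to 21.8) by pooled counts from 3 or fewer counts a library. Its change with the lane as a factor was -0.51, the opposite sign. In the TGF-β and BMP list 7 of 36 were lower, including SMAD6 (-1.65) and ID2 (-1.17), and 2 were higher. The falls were 19.4%, near the 14.4% of all genes tested, and the rises 5.56%, under the 16.7%. Of the early response factors 6 of 33 were higher and 7 lower, 18.2% and 21.2%, near the 16.7% and 14.4% of all genes tested, and 11 were lower with the lane as a factor. FOSB (2.09) and DDIT3 (1.56) rose, MYCN (-2.35) and KLF4 (-1.12, not called with the lane as a factor) fell, and MYC (0.49) and FOS (-0.33) were not called, although MYC was at 0.50 to 0.60 and called without untreated replicate 2 or 5 or replicate 1 at 7 days post-IR. Of 24 targets of the mechanosensitive YAP/TAZ factors 3 were higher and 6 lower, 12.5% and 25%. The classical targets CTGF (0.34) and CYR61 (0.21) were not called.

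Matrix and cytoskeletal genes went both ways within families. Collagens had 9 of 33 higher, or 6 with the lane as a factor, and 12 lower. COL3A1, a fibrillar collagen, measured 231, 213, 239, 239 and 145 CPM in untreated cells and 19.2, 16.1, 18.1, 19.1 and 22.7 CPM at 7 days post-IR (log2 fold change -3.49, SE 0.12, edgeR adjusted p = 9.91e-16). COL17A1, the transmembrane collagen of hemidesmosomes, measured 5.82, 5.73, 6.55, 4.35 and 5.8 CPM and 53.6, 63.1, 55.5, 57.7 and 59.2 CPM (log2 fold change 3.35, SE 0.09, edgeR adjusted p = 2.97e-17). In both the groups were far apart. The collagens COL8A1 (-1.98) and COL5A2 (-1.54) fell and COL4A6 (1.55) rose, while COL1A1 (-0.43) and COL1A2 (0.01) of the main bone collagen were not called. The glycoproteins FN1 (0.80, but 0.38 and not called with the lane as a factor), SPP1 (2.65) and THBS2 (2.54) and the integrin ITGA2 (1.83) rose, and ITGB3 (-1.87) and LAMA4 (-1.55) fell. Of the crosslinking enzymes, transglutaminase 2 (TGM2, 1.60) rose and the lysyl oxidase LOXL1 (-2.25) fell. Actin and myosin genes had 15 of 33 lower and 4 higher. β-actin (ACTB), often used as a reference gene, fell from 5968 ± 593 to 2833 ± 115 CPM (log2 fold change -1.07, SE 0.06, edgeR adjusted p = 6.45e-12). γ-actin (ACTG1, -1.07) and tropomyosin 1 (TPM1, -1.61) fell too, while smooth muscle actin (ACTA2, 1.42) rose. Nestin (NES, -3.14), an intermediate filament protein of progenitor cells, fell and keratin 34 (KRT34, 4.18) rose.

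Lysosomal genes were often higher and hardly ever lower. Of 45 hydrolases 26 were higher and none lower (median 0.62), and of 36 membrane and V-ATPase genes 18 were higher, or 12 without untreated replicate 5, and 1 lower (median 0.49). CTSB, the cysteine protease cathepsin B, measured 889, 925, 822, 842 and 647 CPM in untreated cells and 3375, 3644, 3716, 3668 and 3529 CPM at 7 days post-IR (log2 fold change 2.12, SE 0.08, edgeR adjusted p = 2.78e-15), the largest change in CPM in the list. LAMP1, a membrane protein, rose from 429 ± 19.9 to 702 ± 12.8 CPM (log2 0.71), CD68 by 3.21 and the phosphatase ACP5 by 3.90. GLB1, whose product is the β-galactosidase stained in senescent cells, rose by 0.52 (edgeR adjusted p = 3.01e-09), just past the threshold on the fold, and was below it without untreated replicate 4 or 5 (0.499 and 0.46) or without replicate 3 at 7 days post-IR (0.492). TFEB, which activates lysosomal genes, was the 1 gene lower, from 20.6, 18.1, 18.4, 23.1 and 15.9 CPM to 12.2, 12.6, 12.9, 11.1 and 10.8 CPM (log2 -0.69). Its relative MITF rose by 0.94 but was not called with the lane as a factor, and TFE3 was not called (0.14). Autophagy genes had 9 of 36 higher, led among genes without overlap by the receptor SQSTM1 (1.23), and 1 lower, or 4 lower with the lane as a factor.

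The CLEAR letters CACGTGAC, on either strand, were in 4 of 28 promoters of hydrolases (14.3%, Wilson interval 5.70% to 31.5%) and 6 of 27 of lysosomal membrane genes (22.2%, interval 10.6% to 40.8%), against 4.21% of all promoters, 4.22% of those of genes called higher and 2.76% of those called lower. The acid glucosidase gene GAA, which rose by 0.94, is shown (chr17:80101473-80101580, plus strand) because it holds 2 palindromic blocks, each read on both strands as 2 overlapping matches, in capitals.
GAA: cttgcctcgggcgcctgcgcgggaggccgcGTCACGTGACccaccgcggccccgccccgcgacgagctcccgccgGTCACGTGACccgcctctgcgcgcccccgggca

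The secretory pathway held fewer calls than all genes tested. Of 40 genes of ER folding and the unfolded protein response 7 were higher (17.5%, near the 16.7% of all genes) and none lower, led by the co-chaperone DNAJB9 (1.19), whereas the chaperone HSPA5 (0.35) and the factor XBP1 (0.05) were called only with the lane as a factor (0.81 and 0.90), which gave 13 higher and 3 lower. Of 42 genes of vesicle coats and the Golgi 3 were higher and 4 lower, and without untreated replicate 5 there was 1 lower, whereas 6 were higher and 8 lower with the lane as a factor.

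Among metabolic genes, falls were most frequent in cholesterol synthesis and uptake. Of 25 genes of cholesterol synthesis and uptake 18 were lower and none higher (median -0.69), and 13 lower and 1 higher with the lane as a factor. SQLE, squalene epoxidase, measured 252, 177, 232, 246 and 256 CPM in untreated cells and 133, 133, 139, 137 and 139.8 CPM at 7 days post-IR (log2 fold change -0.77, SE 0.08, edgeR adjusted p = 3.45e-08). Untreated replicate 2 was the nearest to the irradiated libraries, and the groups did not overlap. The isomerase EBP (-1.47), INSIG1 (-1.33) and the factor SREBF1 (-1.25) also fell, and HMGCS1 (-0.29) was not called. CCAAT was in 15 of 19 of these promoters (78.9%, Wilson interval 56.7% to 91.5%, against 36.1%), and the sterol element TCACNCCAC in 1 of 19 (5.26%, against 1.16%, and 1.08% and 1.47% of genes called higher and lower). The opposite branch, efflux and storage, had 9 of 25 higher and 1 lower, with the fatty acid carrier CD36 (4.11), the droplet protein PLIN2 (1.39) and the transporter ABCA1 (0.79) among the rises. Serine and amino acid supply had 10 of 27 lower and 2 higher, 16 lower without untreated replicate 5, but 2 lower and 4 higher with the lane as a factor. The mean over this list of log2 CPM minus the untreated mean did not separate the groups. It was -0.384 to -0.344 at 7 days post-IR, within the -0.498 to 0.661 of the untreated libraries. PHGDH (-1.55), the first enzyme of serine synthesis, fell, although it was at -0.38 and not called with the lane as a factor. ASNS (-1.26) and CHAC1 (-1.40) were called lower with overlapping groups. Without untreated replicate 2, in which ASNS was highest, neither was called (-0.64 and -1.03), and their change was 0.66 and 0.75 with the lane as a factor.

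Genes of the mitochondria held few calls. Of 60 nuclear genes of the respiratory chain 3 were lower and none higher, although 7 were lower without untreated replicate 5, and 10 lower and 10 higher with the lane as a factor. Of 73 genes of the mitochondrial ribosome 6 were lower, or 10 lower and 7 higher with the lane as a factor. Glycolysis had 7 of 27 higher and none lower, or 12 higher and 2 lower with the lane as a factor, against 16.7% of all genes, with hexokinase 2 (HK2, 1.67) and the kinase PDK4 (1.03), while GAPDH (-0.44) was not called unless untreated replicate 2 was left out (-0.51). Of 45 antioxidant and iron genes 9 were higher and 6 lower, or 4 lower without untreated replicate 5. The 9 and 6 were 20% and 13.3%, near the 16.7% and 14.4% of all genes tested. Heme oxygenase 1 (HMOX1, 1.11) and AKR1B10 (3.78) were among the rises.

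Cell death genes moved to both sides of survival. In the BCL2 family 7 of 18 were higher and 3 lower. The anti-apoptotic BCL2L1, which encodes BCL-xL, measured 161, 171, 169, 169 and 208 CPM in untreated cells and 404, 382, 415, 394 and 369.6 CPM at 7 days post-IR (log2 fold change 1.16, SE 0.06, edgeR adjusted p = 2.86e-13). BCL2A1, another anti-apoptotic member, rose by 3.25, and the pro-apoptotic BBC3 (0.97), BID (0.90) and PMAIP1 (0.68) rose too. BMF (-2.51), a pro-apoptotic member that senses detachment, fell. BCL2 (-0.34) and MCL1 (0.16) were not called. Among 19 caspases and inhibitors 5 were higher, which were CASP10 (2.63), BIRC3, MLKL (1.04), TRADD (0.54) and XIAP (0.51), and 3 without untreated replicate 5 and 8 with the lane as a factor. XIAP was also below the threshold without untreated replicate 4 or without replicate 1, 4 or 5 at 7 days post-IR (0.45 to 0.49 in log2), and TRADD was at 0.42 without untreated replicate 5.

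Genes best known from neurons were among those that changed. Of 48 synaptic and neurite genes 19 were higher and 11 lower, and 10 were higher with the lane as a factor. NTRK2, the receptor of brain-derived neurotrophic factor, measured 1.22, 1.58, 1.3, 1.22 and 1.05 CPM in untreated cells and 16.4, 17.3, 17.9, 17.5 and 17 CPM at 7 days post-IR (log2 fold change 3.74, SE 0.11, edgeR adjusted p = 7.99e-17). Its relative NTRK3 (-2.18) and the adhesion protein CNTNAP2 (-3.51) fell, and the vesicle protein synaptophysin (SYP, 2.60) rose. Of 42 potassium and chloride channel genes 13 were higher, KCNQ3 (1.87) and KCNK3 (1.87) among them, and 5 were lower.

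Markers of cell types were checked against the label. The osteoblast factor RUNX2 was expressed at 116 ± 51.5 to 105 ± 4.09 CPM and not called, with untreated replicate 5 the highest library, the later factor SP7 had at most 3 counts in any of these 10 libraries, osteocalcin (BGLAP) was not called (-0.40) unless untreated replicate 2 was left out (-0.53), and the phosphatase ALPL was called (0.77) with overlapping groups and had the opposite sign (-0.11) with the lane as a factor. The mesenchymal marker vimentin (VIM) was at 2403 ± 392 to 2196 ± 42 CPM. Of 12 osteoblast lineage genes tested 4 were higher and 2 lower, and 2 higher and 5 lower with the lane as a factor. Of 7 blood cell markers tested 4 were higher, CD3D (1.07 ± 0.183 to 4.86 ± 0.609 CPM), CD163 (0.107 ± 0.0438 to 0.641 ± 0.196 CPM), ITGAM (2.17 ± 0.55 to 5.95 ± 0.245 CPM) and CD8A (1.51 ± 0.237 to 2.7 ± 0.259 CPM), and 1 lower, but 2 higher and none lower with the lane as a factor, where CD163 and CD8A were not called. The common leukocyte marker PTPRC was at 1.05 ± 0.331 to 1.34 ± 0.233 CPM and not called, but it was called at 0.54 without untreated replicate 5, and CD3E, LYZ and MS4A1 had at most 12 counts in any of these 10 libraries. Among 10 epithelial markers 2 were higher and 5 lower, with EPCAM (-0.86) falling and KRT19 (1.82) rising. Of 6 endothelial markers TIE1 (2.42) and ROBO4 (1.43) were higher. EPCAM and TIE1 were not called with the lane as a factor.

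The largest fitted rises were of genes with few or no counts in untreated cells. Such genes could pass the filter through a group in which they were higher, so that their order is a description. CLCA2, a p53-inducible membrane protein with 1 to 7 counts in an untreated library, rose from 0.106 ± 0.0536 to 10.3 ± 0.84 CPM (log2 6.48). CEACAM1, an adhesion molecule, rose from 0.129 ± 0.0603 to 11.1 ± 1.1 CPM (log2 6.44), and TREM2, a receptor of myeloid cells, from 0.058 ± 0.0561 to 6.61 ± 1.53 CPM (log2 6.65). LCE1C, of the cornified envelope of skin, had at most 2 counts in an untreated library and rose 147-fold (exact 95% counting interval 40.3 to 1220) by pooled counts. Of all genes tested, 28 went from under 0.1 CPM to at least 1 CPM, among them RELN, RNASE7, ACP5, TREM1 and SPARCL1, and 2 genes, MYOCD and SERPINF1, went the other way. Genes of both kinds passed the filter through the group in which they reached 1 CPM, so that their numbers are a description. The largest falls after CXCL14 included FOXS1 (5.02 ± 2.17 to 0.143 ± 0.0946 CPM, log2 -5.05), MYL4 (4.26 ± 0.338 to 0.146 ± 0.0985 CPM, log2 -4.80) and TNNC1 (78.1 ± 16.1 to 5.17 ± 0.838 CPM, log2 -3.91), a forkhead factor, a myosin light chain and troponin C. Troponin T (TNNT2, -3.25), which was singled out after its values were seen, fell as well, and so did the actin-binding leiomodin 1 of smooth muscle (LMOD1, -2.56), which was not called with the lane as a factor.

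Some of the called genes were neighbours on a chromosome. Of the genes tested, 14207 had a position in RefSeq, and in 53 runs at least 4 neighbours were called in the same direction. No number of runs to be expected was computed for a comparison in which 16.7% and 14.4% of genes were called, and some runs hold readthrough genes that share exons with their neighbours. The longest was 7 genes on chromosome 18, SERPINB5, SERPINB4, SERPINB3, SERPINB7, SERPINB2, HMSD and SERPINB8, all higher. On chromosome 1 a run of 6, LCE5A, LCE1E, LCE1C, LCE1B, IVL and PRR9, genes of the cornified envelope and its surroundings, was higher with a median log2 fold change of 4.34, although LCE5A, like SERPINB2 in the first run, was not called with the lane as a factor. On chromosome 10 ACTA2, FAS, LIPA, IFIT2 and IFIT3 were higher, and on chromosome 2 IL1A, IL1B, IL36B and IL36RN. IVL, involucrin, rose from 0.134 ± 0.128 to 2.28 ± 0.254 CPM and SERPINB3 from 0.0919 ± 0.0582 to 2.9 ± 0.311 CPM, 2 genes of squamous epithelium singled out after their values were seen. Reads of SERPINB3 and SERPINB4, and of the LCE1 genes, can be shared between near-identical copies. Of the 248 genes printed here, 9 shared over 10% of their exon bases in GENCODE 29 with another gene of the table, such as ACTA2 with FAS (12.8%) and DDIT3 with MARS (27.2%) on opposite strands and ITGB3 with an unnamed gene on the same strand (51.6%), and the strand setting of the counting is not given in the sources used here. By symbol alone, without the lists, 101 families with at least 15 genes tested were ordered by the share of rises, read against 16.7% of all genes. The first 4 were CFAP, for cilia and flagella (10 of 16 higher, none lower), ADAMTS (9 of 18 higher, 3 lower), HSD (8 of 16 higher, 3 lower) and IL (21 of 49 higher, 6 lower), picked after their values were seen.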

How the data were processed

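The measurements were RNA-seq counts per gene of U2-OS cells, with 5 untreated libraries and 5 harvested 7 days post-IR, grouped by their labels. The authors made stranded mRNA libraries from total RNA, sequenced them, and deposited raw counts for 20314 genes, of which 1217 were at 0 in all libraries. The submitters' processing notes name bcl2fastq, Trimmomatic, STAR 2.4.2a and hg19. The counting tool and its annotation are not given in the sources used here.

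Genes were filtered with filterByExpr (minimum count 10), scaled by TMM and tested with edgeR 4.0.16 in R 4.3.3. All 20 libraries were fitted with 1 term for each of the 4 groups, without covariates, and p-values were adjusted by Benjamini-Hochberg over all 14992 genes tested. The study describes the 5 replicates of a group as biological, and the labels do not say how they were kept apart, so that p-values measure the spread between these libraries. Log2 CPM used a prior count of 2. Genes with 3 or fewer counts in each library of a group were given as the ratio of pooled counts, whose interval covers counting error only. The fit was tested on simulated counts. The theme score is the mean over genes of log2 CPM minus the untreated mean.

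The lists and their members were chosen with earlier results of these data known. The genes considered for naming were the 12 largest rises and 12 largest falls among called genes without overlap and with at least 1 CPM in the higher group, the key genes of each list, and in each list the 2 largest rises and the 2 largest falls called. The text names some of these, and further members, picked after their values were seen. Promoters came from RefSeq (GRCh38.p14) and were matched by Entrez identifier. Their build differs from that of the counts, which carry no coordinates. Exon overlaps came from GENCODE 29. Alternatives were other scalings (RLE, upper quartile, library size), DESeq2 1.42.0, other filters, thresholds and adjustments, the 10 libraries alone, the replicate number as a block, the lane as a factor, and each library left out. Some genes are not reported here.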

Additional observations from a re-analysis of the deposited data

Results flagged for a closer look

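Library totals, theme scores and the levels of the printed genes were searched, within each group of 5 libraries, for a library farther from the nearest other one than Dixon's criterion allows at 95%. Of 526 such groups of values 46 had one, where chance gives about 1 in 20. The untreated libraries held 34 of them, 24 in replicate 5, and the libraries at 7 days post-IR held 12. Values are in CPM, with the range of the other 4 libraries after each.

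Untreated replicate 5 was the highest for AKR1B10 (0.951 against 0.304 to 0.428), ALPL (48.4 against 18.1 to 26.2), BCL2L1 (208 against 161 to 171), BLM (47.8 against 33.2 to 36), CD44 (341 against 222 to 238), CD68 (6.28 against 1.27 to 2.15), CDKN2B (16.8 against 13.2 to 14.1), FOXM1 (637 against 323 to 367) and FOXS1 (8.89 against 3.79 to 4.3). It was also the highest for HMGA2 (84.3 against 39.8 to 52.1), ID2 (21.3 against 11.8 to 14), MCM5 (290.4 against 226 to 239), MYOCD (2.95 against 1.09 to 1.49), PTPRC (1.62 against 0.824 to 1.05), RELA (216 against 115 to 121), RUNX2 (206 against 82.5 to 109.7), SNRPA (190.0 against 98.5 to 116) and TGFB1 (733 against 237 to 265). The same library was the lowest for COL3A1 (145 against 213 to 239), RRN3 (18.6 against 27.7 to 30.5), RRP12 (46.6 against 57.7 to 62.1), TAP1 (38.1 against 56.7 to 63.3) and WEE1 (58.8 against 82.5 to 85.2), and for the score of cell death theme (-0.12 against 0.00944 to 0.058), which is a mean difference of log2 CPM. Without this library TGFB1 had a log2 fold change of -0.43.

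Among the other untreated libraries, single genes stood apart in 1 library each. Replicate 1 was the highest for HMMR (97.2 against 82.5 to 86.2) and LCE1C (0.0594 against 0 to 0). Replicate 2 was the highest for ASNS (392 against 65.4 to 149.9). Replicate 2 was the lowest for NES (39.9 against 63.3 to 67.6). Replicate 3 was the highest for BMF (24.8 against 21.1 to 22.1). Replicate 4 was the highest for CYR61 (244 against 213 to 218), FBL (223 against 146 to 166), SERPINB2 (0.033 against 0 to 0) and TNNC1 (106 against 62.8 to 74.6). Replicate 4 was the lowest for CCND1 (314 against 353 to 360.5).

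At 7 days post-IR each of the 5 libraries stood apart for 1 gene or more. Replicate 1 was the highest for MCM6 (72.2 against 67.1 to 68.2). Replicate 1 was the lowest for CD36 (2.98 against 4.24 to 4.73) and GDF15 (38.5 against 48 to 51.7). Replicate 2 was the highest for LCE1C (2.4 against 1.57 to 1.76). Replicate 2 was the lowest for ABCA1 (19.5 against 20.6 to 20.9). Replicate 3 was the highest for ALPL (55.1 against 41.2 to 44.6) and CD274 (11 against 9.95 to 10.2). Replicate 3 was the lowest for MCM5 (104 against 113 to 115). Replicate 4 was the highest for IL6 (2.4 against 1.55 to 1.72) and IL6R (5.57 against 4.58 to 4.83). Replicate 5 was the highest for TNNT2 (1.86 against 1.48 to 1.5). Replicate 5 was the lowest for MARS (245 against 253 to 255). MARS was not called, except without untreated replicate 1 (-0.514) or 5 (-0.6), and each of the other genes kept its call when that library was left out.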

How the results depend on the processing

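The number of genes higher stayed within 1.5 times of 2505 and that of genes lower within 1.5 times of 2152 under the other scalings, DESeq2 (2431 higher, 2222 lower), both other filters, the 10 libraries alone and the lane as a factor (3268 higher, 2920 lower). They moved with the threshold, to 1146 higher and 680 lower above 1 in log2 fold change, to 4935 higher and 4685 lower with no threshold on the fold, and to 1396 lower with Bonferroni adjustment. Leaving out 1 library gave 2420 to 2630 higher and 2138 to 2337 lower. Same-numbered replicates did not deviate together (correlations of -0.0659 to 0.0384), and with the replicate number as a block 2534 were higher and 2094 lower.

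Medians of themes moved with the lane as a factor, to 1.18 for arrest, -0.542 for proliferation, -0.413 for nuclear architecture, 0.227 for protein synthesis, 0.497 for secreted factors, 0.372 for innate immunity, -0.179 for signalling, 0.54 for lysosome, 0.171 for the secretory pathway, 0.104 for metabolism, 0.387 for cell death, 0.0988 for neuronal genes and -0.173 for cell type markers. With library size alone they were -0.641 for proliferation, -0.4 for nuclear architecture, 0.486 for secreted factors, 0.379 for innate immunity, -0.0789 for matrix, 0.479 for lysosome and 0.176 for the secretory pathway. Without a filter they were -0.726, -0.484, 0.564, 0.395, 0.399 and 0.0895 for proliferation, nuclear architecture, secreted factors, innate immunity, lysosome and the secretory pathway, and 0.399 for cell type markers. With 10 counts in every library they were 0.341 for secreted factors, -0.189 for matrix and -0.143 for cell type markers. Leaving out 1 library gave 0.847 to 0.942 for arrest, -0.711 to -0.672 for proliferation, -0.471 to -0.428 for nuclear architecture, -0.13 to 0.00533 for protein synthesis, 0.4 to 0.455 for secreted factors, 0.289 to 0.335 for innate immunity, -0.147 to -0.0838 for signalling, -0.153 to -0.0959 for matrix, 0.37 to 0.457 for lysosome, 0.0925 to 0.132 for the secretory pathway, -0.216 to -0.12 for metabolism, 0.204 to 0.247 for cell death, 0.165 to 0.233 for neuronal genes and 0.0212 to 0.21 for cell type markers. The cause was not tested.

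With the lane as a factor 4 of 248 printed genes changed sign, ALPL (-0.113), ASNS (0.663), CHAC1 (0.754) and DKK1 (-0.507), and 22 kept their sign but were no longer called. Each is named where it is described above. The cause was not tested.

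Searching the bases before the start alone, the CHR was in 8.97% of all promoters, 11.1% of those of genes lower, 23.3% of kinetochore genes and 52% of kinesins, CCAAT in 34.5% of all, E2F letters in 4.22% of all and 5.09% of genes lower, NF-κB in 5.88%, AP-1 in 4.24%, ISRE in 2.38%, CLEAR in 3.79% and the sterol element in 0.909% of all. Fewer bases searched give fewer matches.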
